A study of Mus musculus with 6 samples.

Results

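The matrix metalloproteinases (MMPs), the ADAM and ADAMTS proteases and the tissue inhibitors of metalloproteinases (TIMPs) were measured in mouse bone marrow cultures. Members were all genes whose name on the array begins with Mmp, Adam or Adamts followed by a number, together with Timp1 to Timp4. Mmp8 and Mmp9, which neutrophils carry in their granules, were left out by this rule. It gave 77 genes of 37325 gene names, covered by 150 of 56605 probes.

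Metalloproteases cut proteins with a zinc ion held in their active site. MMPs act mostly on the extracellular matrix, ADAMs shed the outer parts of membrane proteins such as cytokines, receptors and adhesion molecules, and ADAMTS proteases act on procollagens, proteoglycans and blood proteins. TIMPs bind the active site and block it. In bone marrow and in myeloid cells these enzymes are known for release of cytokines and growth factors from the cell surface and for passage of cells through tissue.

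Each of 3 groups was measured on 2 one-colour Agilent arrays. For 6G- BM-MDSC, cells bearing Ly-6G, a surface antigen of neutrophils, were removed from bone marrow with magnetic beads before culture, and the rest were kept for 4 days with 40 ng/mL GM-CSF, the cytokine that drives growth of granulocytes and monocytes, on tissue culture-treated dishes. MDSC (conv.), myeloid-derived suppressor cells made in the conventional way, were grown from whole bone marrow with the same dose and time. DCs, the dendritic cells set against both, were grown from bone marrow for 8 days with 20 ng/mL GM-CSF on dishes that were not treated. All marrow came from female C57BL/6J mice of 6 to 8 weeks, with no genetic change, so dose, culture time and dish differed together between either MDSC group and DCs. The cultures are mixtures, and in such bulk RNA fewer cells of a type and less RNA per cell cannot be told apart. The labels do not say whether replicates were separate cultures or animals, so p-values measure only the spread between these samples.

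A level is given below as the log2 signal relative to the 75th percentile of its array, and a difference as the log2 difference of group means with the standard error (SE) of the limma fit over 21862 genes. Between 55.6% and 59.9% of probes were well above background on an array. The correlation of arrays was 0.995 to 0.996 within a group, 0.993 to 0.994 between 6G- BM-MDSC and MDSC (conv.), and 0.971 to 0.976 between either MDSC group and DCs. All arrays lay on 1 slide, with both MDSC groups in its row 1 and DCs in row 2, so the row and the difference from DCs cannot be told apart. The dim end of the DC arrays lay higher. The lowest signal called well above background had a level of -5.45 to -5.37 on the MDSC arrays and -4.82 to -4.80 on the DC arrays. The 81 member probes that were at background on all 6 arrays had a median difference from DCs of -0.51 in 6G- BM-MDSC and -0.53 in MDSC (conv.). Ly6g itself had a level of 1.71 and 1.86 in 6G- BM-MDSC, 1.95 and 1.96 in MDSC (conv.) and -1.94 and -2.19 in DCs, so its RNA was present after 4 days of culture in the depleted group as well. The markers fixed for DCs (11 genes) and for neutrophils (10 genes) were all well above background on every array.

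Of the 77 genes, 31 were well above background on both arrays of at least 1 group and were tested, and 46 were not. All 4 TIMPs were tested, as were 8 of 9 ADAMs with a zinc site, 7 of 14 secreted MMPs, 4 of 7 membrane-bound MMPs and 2 of 3 ADAMs of nerve cells. Only 1 of 21 ADAMs of testis and epididymis, 1 of 3 ADAMTS genes that trim procollagen and 4 of 9 other ADAMTS genes were tested. Of the ADAMTS genes that cleave proteoglycans 0 of 7 were tested. That list, Adamts1, Adamts4, Adamts5, Adamts8, Adamts9, Adamts15 and Adamts20, holds the main aggrecan-cleaving enzymes of cartilage. Among the 46 genes, 31 had no probe well above background on any array and 15 had a probe above it on 1 or 2 arrays, which does not show that they were absent.

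Among the 31 tested members, 5 were higher and 7 lower in 6G- BM-MDSC than in DCs at an adjusted p under 0.05 (16.1% and 22.6%). Over all genes tested the shares were 15.0% higher and 17.8% lower. For MDSC (conv.) against DCs 5 members were again higher and 7 lower, where 13.4% of all genes were higher and 15.8% lower. The shares of members lay near those of all genes. With 1 array left out in turn, 2 to 6 members were higher and 4 to 7 lower in 6G- BM-MDSC, and 2 to 4 were higher and 4 to 7 lower in MDSC (conv.). With an array left out, the shares of all genes called against DCs fell as well. The members' median difference from DCs was -0.15 in 6G- BM-MDSC and -0.17 in MDSC (conv.). Medians over all genes were -0.04 in 6G- BM-MDSC and -0.03 in MDSC (conv.). Both comparisons used the same DC arrays. In all, 10 members passed in both, 4 passed in 1 of them, and 17 in neither. The share of all genes that passed in both is not given here, so these counts have no background to be set against. Timp3, Mmp2, Mmp27 and Adam17 were higher in both, and Mmp27 was tested only through the MDSC groups. Adam23, Adam33, Adamts7, Mmp12, Mmp25 and Timp4 were lower in both. In the plot of members by role, the differences run from -1.68 for Adam23 to 2.18 for Timp3.

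**Figure D1:**
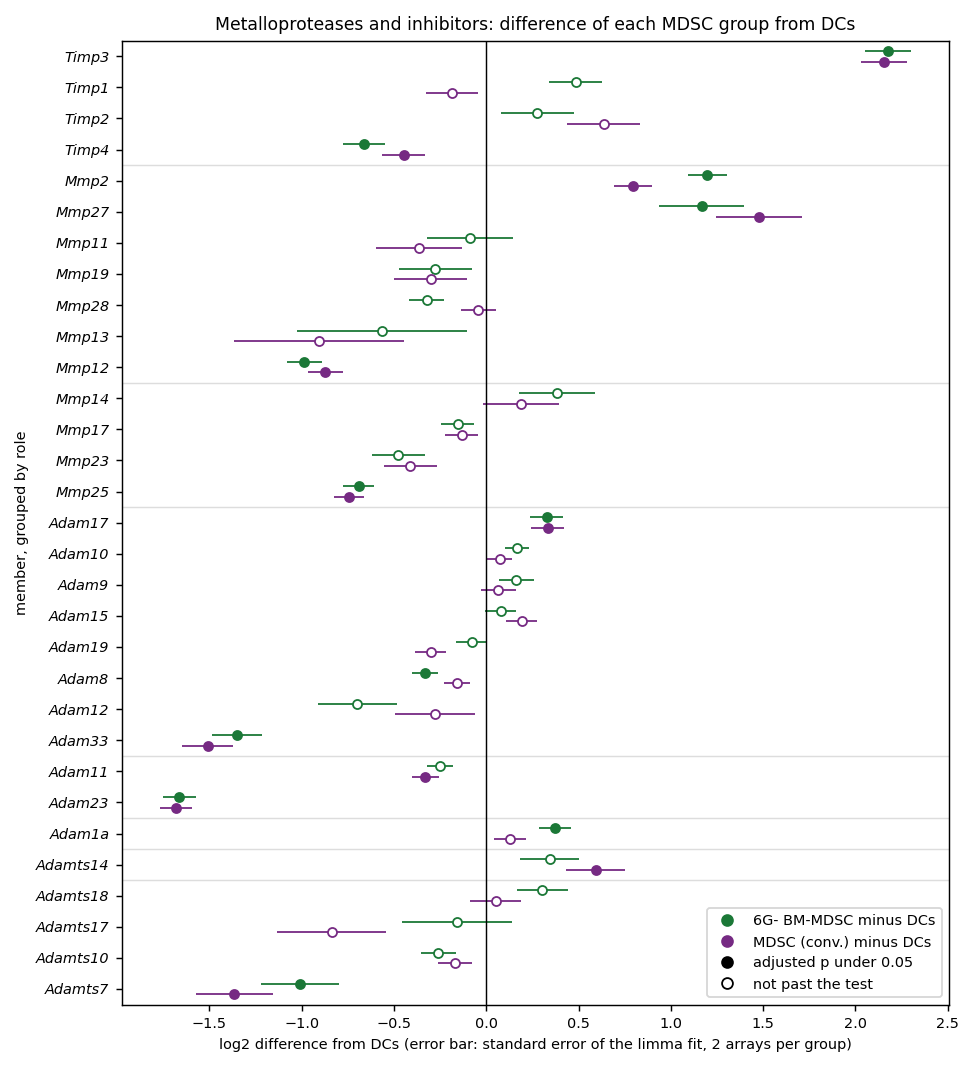
Log2 difference from DCs (x axis) of each of the 31 tested members (y axis, grouped by role), for 6G- BM-MDSC (green, upper point) and MDSC (conv.) (purple, lower point), with the standard error of the limma fit as error bar and filled points where the adjusted p was under 0.05. Timp3 lies farthest right and Adam23 farthest left in both MDSC groups. Filled points stand on both sides of 0 among TIMPs, secreted MMPs and ADAMs with a zinc site.

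Timp3, the TIMP that binds to the matrix and inhibits Adam17 and several ADAMTS proteases as well as MMPs, was the member with the greatest rise. Its level was -0.60 and -0.87 in 6G- BM-MDSC, -0.85 and -0.66 in MDSC (conv.), and -2.90 and -2.92 in DCs. Every MDSC array was thus far above both DC arrays, while both MDSC groups overlapped. The difference from DCs was 2.18 (SE 0.12, 4.52-fold, adjusted p = 0.00072) in 6G- BM-MDSC and 2.16 (4.45-fold, adjusted p = 0.000752) in MDSC (conv.), and between both MDSC groups it was 0.02. Its 3 probes, at chr10:85811696-85811755, chr10:85769407-85769466 and chr10:85812041-85812100 of mm9, gave differences of 2.18 to 2.61 in 6G- BM-MDSC and 2.16 to 2.34 in MDSC (conv.), each past the test in the fit over probes. The probe at chr10:85769407-85769466 was not well above background in DCs, so that its difference is measured on 1 side only. The call held with each array left out in turn, with adjusted p of at most 0.00986.

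Timp3 and Mmp12 are an inhibitor and a secreted MMP of which 3 probes each passed the test, so stretches of their promoters are shown, with that of Mmp13, a neighbour of Mmp12 in the MMP gene cluster of chromosome 9. Promoters are those of RefSeq on GRCm38.p6, which held 22 of the 31 tested members with 26 start sites. The 250 bases before each start were searched on both strands. All 4 stretches lie on the + strand, at chr10:86300352-86300411 for Timp3, at chr9:7347304-7347363 and chr9:7344283-7344342 before 2 starts of Mmp12, and at chr9:7272453-7272512 for Mmp13. Capitals mark the GC box (GGGCGG, here on the other strand) of Timp3, the AP-1 motif (TGANTCA) of Mmp12 and Mmp13, and the PU.1 motif (GAGGAAGT, here on the other strand) of Mmp12.
Timp3 GC box: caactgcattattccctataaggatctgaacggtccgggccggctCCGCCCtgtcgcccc
Mmp12 AP-1: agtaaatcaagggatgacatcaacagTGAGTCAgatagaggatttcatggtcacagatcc
Mmp12 PU.1: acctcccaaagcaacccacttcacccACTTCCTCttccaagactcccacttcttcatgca
Mmp13 AP-1: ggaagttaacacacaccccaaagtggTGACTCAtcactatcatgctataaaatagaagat

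The AP-1 motif stood in 3 of the 26 member promoters (Adam19, Mmp12 and Mmp13), or 11.5%, and in 6.75% of all 32851 promoters searched. The GC box, which does not overlap it, stood in 13 of 26 (50%), among them those of Timp1, Timp2, Timp3, Adam10, Adam17 and Mmp14, and in 32.7% of all. The PU.1 motif stood in 1 of 26, that of Mmp12, and in 2.44% of all. Members with a GC box were found among those higher (Timp3, Adam17), lower (Mmp25, Adam8) and not past the test (Adam10, Timp2). These are matches of letters only.

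Of the other TIMPs, Timp1 and Timp2 did not pass the test against DCs and Timp4 was lower. Timp1, the soluble inhibitor induced in inflammation, had a level of 0.13 and 0.48 in 6G- BM-MDSC, -0.44 and -0.29 in MDSC (conv.), and -0.24 and -0.12 in DCs. It was the only TIMP whose 6G- BM-MDSC arrays lay above DCs and whose MDSC (conv.) arrays lay below them. Its difference from DCs was 0.48 (SE 0.14, adjusted p = 0.0571) in 6G- BM-MDSC and -0.19 in MDSC (conv.), and neither passed the test. Timp2, which both inhibits MMPs and helps Mmp14 to activate pro-Mmp2, had a level of 3.63 and 4.01 in 6G- BM-MDSC, 4.06 and 4.29 in MDSC (conv.), and 3.35 and 3.73 in DCs. Its arrays overlapped DCs in 6G- BM-MDSC but not in MDSC (conv.), with differences of 0.28 (adjusted p = 0.326) in 6G- BM-MDSC and 0.64 (SE 0.20, adjusted p = 0.0696) in MDSC (conv.). After normexp background correction, Timp1 passed in 6G- BM-MDSC (adjusted p = 0.0363) and Timp2 in MDSC (conv.) (adjusted p = 0.0185). The second Timp2 probe, across an exon junction, gave 0.54 in 6G- BM-MDSC and 0.61 in MDSC (conv.) without passing.

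Timp4, an inhibitor known mostly from heart muscle and fat, had a level of -4.93 and -4.84 in 6G- BM-MDSC, -4.60 and -4.74 in MDSC (conv.), and -4.10 and -4.34 in DCs. All arrays were well above background but near its edge, and no MDSC array reached a DC array. The difference from DCs was -0.66 (SE 0.12, adjusted p = 0.0144) in 6G- BM-MDSC and -0.45 (adjusted p = 0.0441) in MDSC (conv.), about as large as the median of the member probes at background. After normexp it was -0.24 in both (adjusted p = 0.0403 in each). The call in 6G- BM-MDSC was lost without either of its arrays or without DCs replicate 1 (adjusted p 0.0536 to 0.0612), and that in MDSC (conv.) with each of the 6 arrays left out (0.0518 to 0.174). In RefSeq annotation (GRCm38.p6), Timp1 lies within Syn1, Timp3 within Syn3 and Timp4 within Syn2, so 3 of the 4 inhibitors share an arrangement inside synapsin genes although their differences ran in different directions.

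**Figure D2:**
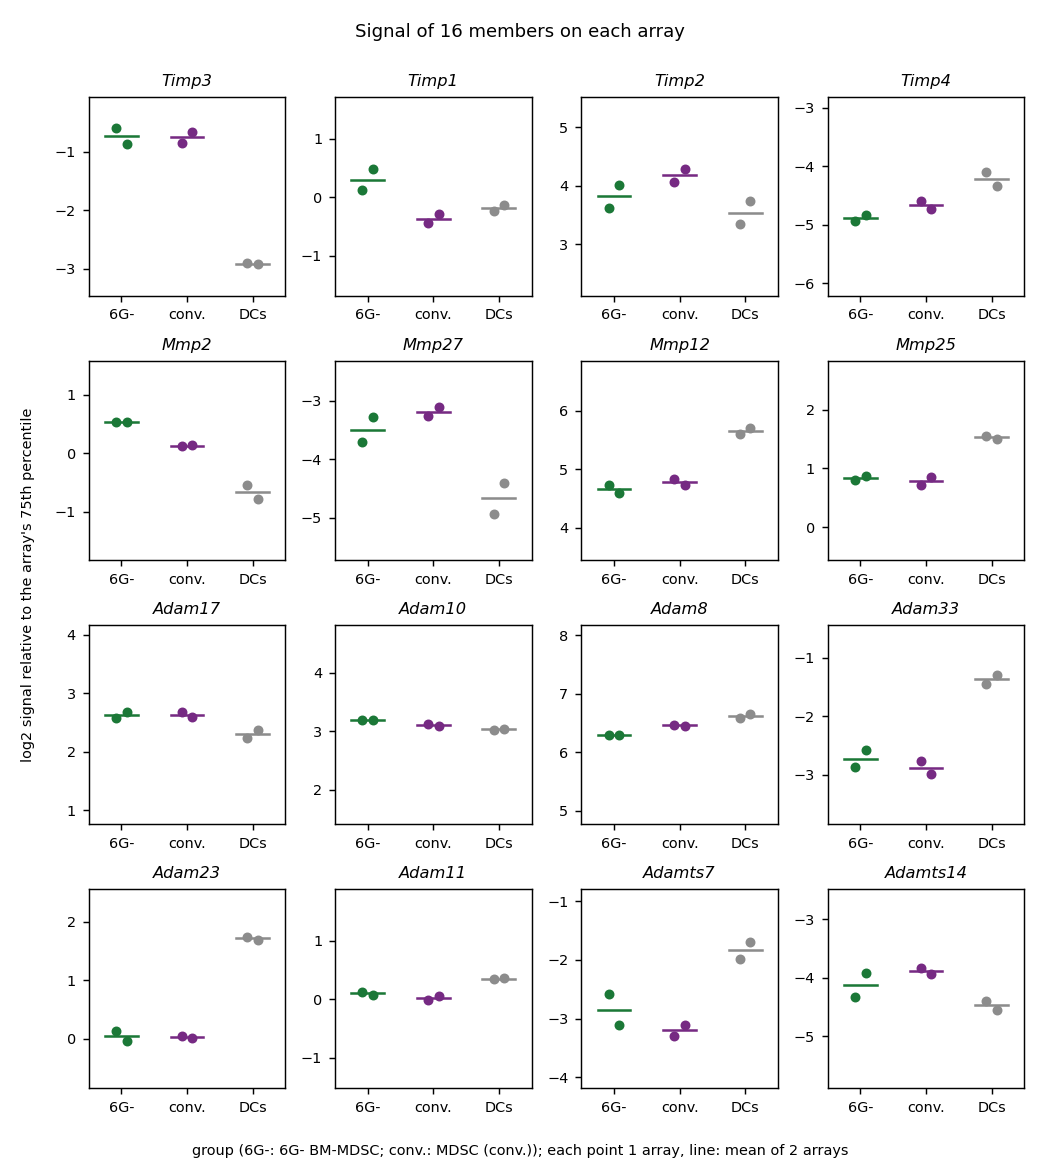
Log2 signal relative to the array's 75th percentile (y axis, each panel spanning the same range) of 16 members on each array, for 6G- BM-MDSC, MDSC (conv.) and DCs (x axis), with points for arrays and a line for the mean of 2 arrays. Timp3, Mmp2 and Mmp27 stand higher in both MDSC groups, Mmp12, Mmp25, Adam33, Adam23 and Adamts7 stand lower, and Adam10 is nearly level.

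Among secreted MMPs, 2 of 7 tested were higher than in DCs and 1 lower in either MDSC group. Of all genes, 15.0% were higher and 17.8% lower in 6G- BM-MDSC, and 13.4% higher and 15.8% lower in MDSC (conv.). Mmp2, the gelatinase that cuts type IV collagen, had a level of 0.54 and 0.53 in 6G- BM-MDSC, 0.12 and 0.14 in MDSC (conv.), and -0.53 and -0.78 in DCs. The groups were fully separated, with 6G- BM-MDSC at the top. The difference from DCs was 1.20 (SE 0.10, 2.29-fold, adjusted p = 0.00208) in 6G- BM-MDSC and 0.79 (1.73-fold, adjusted p = 0.00684) in MDSC (conv.), and both held with each array left out. Mmp2 thus had the same direction as Mmp9, the other gelatinase, which the rule leaves out and which had a level of 3.55 and 3.56 in 6G- BM-MDSC, 3.05 and 3.34 in MDSC (conv.), and -1.65 and -1.96 in DCs. Mmp8, also left out, differed from DCs by 1.04 in 6G- BM-MDSC and 1.13 in MDSC (conv.). Mmp27, a little studied member of the stromelysin group, had a level of -3.71 and -3.29 in 6G- BM-MDSC, -3.26 and -3.11 in MDSC (conv.), and -4.93 and -4.40 in DCs, where only 1 of 2 arrays was well above background. It was higher by 1.17 (SE 0.23, adjusted p = 0.02) in 6G- BM-MDSC and by 1.48 (adjusted p = 0.0113) in MDSC (conv.). Mmp27 was tested only through the MDSC groups, so its higher signal there was favoured by the filter. After normexp the difference was 0.33 (adjusted p = 0.0457) in 6G- BM-MDSC and 0.42 (adjusted p = 0.0202) in MDSC (conv.), and with probes above background on all 6 arrays Mmp27 was not tested. In 6G- BM-MDSC the call was lost without its replicate 2 (adjusted p = 0.0809) or without DCs replicate 1 (0.0622), and in MDSC (conv.) without its replicate 2 (0.0684).

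Mmp12, the macrophage elastase, was the secreted MMP that fell. Its level was 4.73 and 4.59 in 6G- BM-MDSC, 4.83 and 4.72 in MDSC (conv.), and 5.59 and 5.70 in DCs. Both MDSC groups overlapped and lay below DCs. The difference was -0.99 (SE 0.09, 1.98-fold, adjusted p = 0.00275) in 6G- BM-MDSC and -0.87 (1.83-fold, adjusted p = 0.00403) in MDSC (conv.). All 3 of its probes passed in both comparisons, with differences of -0.74 to -0.99 in 6G- BM-MDSC and -0.87 to -1.06 in MDSC (conv.). Macrophage markers moved with it, with 6 of 8 lower and 0 higher in either MDSC group and a summed signal, over the array's 75th percentile, of 103.0 to 107.4 in 6G- BM-MDSC, 101.9 to 108.8 in MDSC (conv.) and 163.4 to 183.5 in DCs. DC markers did so too, with 10 of 11 lower in either group, while 1 was higher in 6G- BM-MDSC (0.50) and 1 did not pass in MDSC (conv.) (0.20). Summed signals of the DC markers were 921.3 to 1002 in 6G- BM-MDSC, 962.1 to 973.0 in MDSC (conv.) and 1726 to 1751 in DCs. Their part in the fall of Mmp12 was not tested.

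Mmp12 is part of the cluster of 9 members on chromosome 9, whose probes lay between positions 7282762 and 7699535 of mm9. Of these, Mmp12, Mmp13 and Mmp27 were tested and Mmp1a, Mmp1b, Mmp3, Mmp7, Mmp10 and Mmp20 were not. Mmp12 was lower and Mmp27 higher than in DCs, so tested genes of the cluster did not share a direction. Mmp13, the collagenase of bone and cartilage, had a level of -2.11 and -1.57 in 6G- BM-MDSC, -2.56 and -1.80 in MDSC (conv.), and -1.82 and -0.73 in DCs. It was the member with the widest gap between replicates in MDSC (conv.) (0.77) and in DCs (1.09), and its differences from DCs of -0.56 in 6G- BM-MDSC and -0.91 in MDSC (conv.) (SE 0.46) did not pass. Mmp19 and Mmp11 did not pass either. Mmp28, or epilysin, an MMP of skin and macrophages, missed the test in 6G- BM-MDSC at -0.32 (adjusted p = 0.0545) and differed by -0.04 in MDSC (conv.).

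Against DCs, 15.0% of all genes were higher and 17.8% lower in 6G- BM-MDSC, and 13.4% higher and 15.8% lower in MDSC (conv.). Membrane-bound MMPs gave 0 of 4 higher and 1 of 4 lower in either comparison. That gene was Mmp25, which is held to leukocyte membranes by a lipid anchor, with a level of 0.80 and 0.88 in 6G- BM-MDSC, 0.72 and 0.85 in MDSC (conv.), and 1.55 and 1.51 in DCs. Both MDSC groups overlapped and lay below DCs, with differences of -0.69 (SE 0.08, adjusted p = 0.00497) in 6G- BM-MDSC and -0.75 (adjusted p = 0.00431) in MDSC (conv.). Mmp14, the membrane collagenase that activates pro-Mmp2, had a level of -0.33 and -0.48 in 6G- BM-MDSC, -0.68 and -0.52 in MDSC (conv.), and -1.07 and -0.50 in DCs. The DC arrays were wide apart, and the differences of 0.38 (SE 0.21, adjusted p = 0.211) in 6G- BM-MDSC and 0.19 (adjusted p = 0.527) in MDSC (conv.) did not pass. Without DCs replicate 2 the difference in 6G- BM-MDSC was 0.67 (adjusted p = 0.0415).

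The ADAMs with a zinc site had a median difference from DCs of -0.00 in 6G- BM-MDSC and -0.05 in MDSC (conv.) over 8 tested genes. Single genes ran from -1.35 to 0.33 in 6G- BM-MDSC and from -1.51 to 0.33 in MDSC (conv.). Adam10, the sheddase of Notch receptors and many adhesion molecules, had a level of 3.19 and 3.20 in 6G- BM-MDSC, 3.11 and 3.09 in MDSC (conv.), and 3.02 and 3.03 in DCs. Its arrays did not overlap between groups, but the differences from DCs were 0.17 (SE 0.07, adjusted p = 0.119) in 6G- BM-MDSC and 0.07 (adjusted p = 0.454) in MDSC (conv.) and did not pass. Adam17, the enzyme that releases TNF from the cell surface, had a level of 2.58 and 2.69 in 6G- BM-MDSC, 2.68 and 2.59 in MDSC (conv.), and 2.24 and 2.37 in DCs. All MDSC arrays were above both DC arrays. The difference was 0.33 in both (SE 0.09, 1.26-fold), with adjusted p = 0.0464 in 6G- BM-MDSC and 0.0487 in MDSC (conv.), and its 3 probes gave 0.33 to 0.57. These calls were at the edge of the test and were lost with each of the 6 arrays left out (adjusted p 0.0702 to 0.183).

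Adam33, a sheddase known from airway smooth muscle and asthma, fell most among the catalytic ADAMs. Its level was -2.86 and -2.58 in 6G- BM-MDSC, -2.77 and -2.99 in MDSC (conv.), and -1.44 and -1.30 in DCs. DCs stood clear of both MDSC groups, which overlapped. The difference was -1.35 (SE 0.14, 2.55-fold, adjusted p = 0.00322) in 6G- BM-MDSC and -1.51 (2.85-fold, adjusted p = 0.00245) in MDSC (conv.), and held with each array left out. The other tested probe, across an exon junction, gave -0.83 in 6G- BM-MDSC and -0.72 in MDSC (conv.) and did not pass, and 3 more probes were not tested. Adam8, a leukocyte ADAM that sheds adhesion molecules, had a level of 6.29 and 6.29 in 6G- BM-MDSC, 6.47 and 6.45 in MDSC (conv.), and 6.58 and 6.65 in DCs. It was lower in 6G- BM-MDSC, with a difference of -0.33 (SE 0.07, adjusted p = 0.0247), and did not pass in MDSC (conv.) at -0.16 (adjusted p = 0.156). Leaving out any array of 6G- BM-MDSC or DCs ended the call (adjusted p 0.0733 to 0.11), as did quantile normalization (-0.22, adjusted p = 0.06). Adam9, Adam12, Adam15 and Adam19 did not pass, with differences of -0.70 to 0.16 in 6G- BM-MDSC and -0.30 to 0.19 in MDSC (conv.).

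Adam23 had the greatest fall of all members. It lacks the zinc site and is known as a receptor of nerve cells, where it binds the secreted protein Lgi1. Its level was 0.14 and -0.04 in 6G- BM-MDSC, 0.05 and 0.02 in MDSC (conv.), and 1.74 and 1.69 in DCs. Both MDSC groups overlapped and DCs stood apart. The difference was -1.66 (SE 0.09, 3.17-fold, adjusted p = 0.000587) in 6G- BM-MDSC and -1.68 (3.21-fold, adjusted p = 0.000617) in MDSC (conv.). Its 3 tested probes, at separate positions along the gene, gave differences of -1.66 to -2.26 in 6G- BM-MDSC and -1.47 to -1.95 in MDSC (conv.), each past the test, and 2 more probes were not tested. The call held with each array left out, with adjusted p of at most 0.00956.

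The probe that represented Adam23, 1 of the 3 probes of Mmp12 and 1 of the 2 probes of Timp2 span an intron, so that they match spliced RNA and not a genomic stretch of that length. They lie at chr1:63614541-63617541 (+ strand, 3001 bases) for Adam23, at chr9:7354810-7355325 (+ strand, 516 bases) for Mmp12 and at chr11:118171964-118178741 (- strand, 6778 bases) for Timp2 on mm9. Each is a 60-base oligo read here from the array files, with no part in capitals.
Adam23 probe: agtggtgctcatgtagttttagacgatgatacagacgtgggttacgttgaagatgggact
Mmp12 probe: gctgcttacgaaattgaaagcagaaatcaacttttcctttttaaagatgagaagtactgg
Timp2 probe: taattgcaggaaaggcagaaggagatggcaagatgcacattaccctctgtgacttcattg

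**Figure D3:**
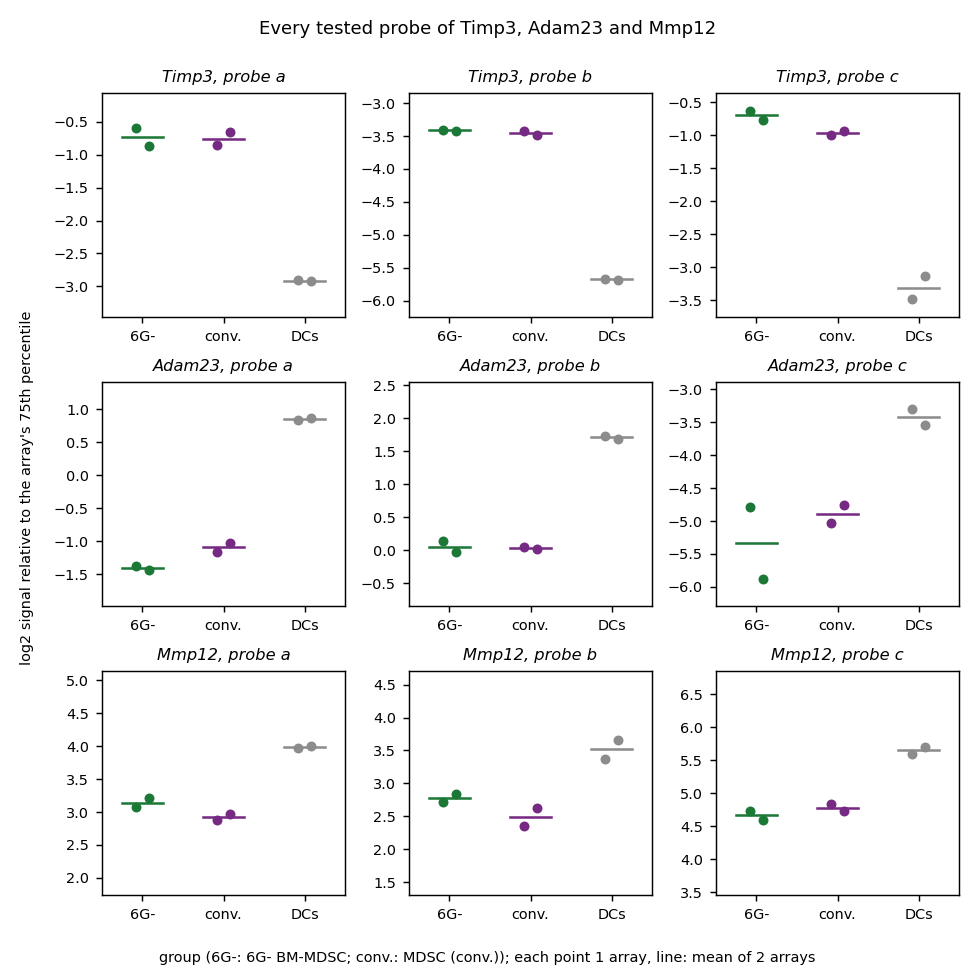
Log2 signal relative to the array's 75th percentile (y axis, 1 range width in all panels) of the 3 tested probes of Timp3, Adam23 and Mmp12 for 6G- BM-MDSC, MDSC (conv.) and DCs (x axis), with points for arrays and a line for the mean of 2 arrays. All probes of Timp3 stand higher, and all probes of Adam23 and Mmp12 lower, in both MDSC groups than in DCs.

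Adam11, the other tested ADAM of nerve cells, had a level of 0.13 and 0.07 in 6G- BM-MDSC, -0.01 and 0.05 in MDSC (conv.), and 0.34 and 0.36 in DCs. It missed the test in 6G- BM-MDSC at -0.25 (adjusted p = 0.0523) and was lower in MDSC (conv.), with a difference of -0.33 (SE 0.07, adjusted p = 0.0278). Its other probe differed by -1.46 in 6G- BM-MDSC and -1.44 in MDSC (conv.), past the test in both, so the size of the fall differed between probes. The call of the brighter probe was lost without any array of MDSC (conv.) or DCs (adjusted p 0.0865 to 0.113). Adam1a, a subunit of the sperm protein fertilin in mice, was the sole tested member of the testis group, with a level of -0.10 and -0.02 in 6G- BM-MDSC, -0.22 and -0.38 in MDSC (conv.), and -0.40 and -0.46 in DCs. It was higher in 6G- BM-MDSC by 0.37 (SE 0.09, adjusted p = 0.0319) and differed by 0.13 in MDSC (conv.), and the call was lost without any array of 6G- BM-MDSC or DCs (adjusted p 0.0763 to 0.126).

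Of the ADAMTS proteases, Adamts7, which cuts the cartilage protein COMP and is known from vascular smooth muscle, fell. Its level was -2.58 and -3.11 in 6G- BM-MDSC, -3.29 and -3.11 in MDSC (conv.), and -1.98 and -1.70 in DCs. No MDSC array reached DCs, and the difference was -1.01 (SE 0.21, adjusted p = 0.0226, and -0.65 after normexp) in 6G- BM-MDSC and -1.37 (adjusted p = 0.0107) in MDSC (conv.). The calls were lost without 6G- BM-MDSC replicate 2 or either DC array (adjusted p 0.0542 to 0.0937) and without either MDSC (conv.) array or DCs replicate 2 (0.052 to 0.057). Adamts14, which trims the ends of procollagen, had a level of -4.33 and -3.92 in 6G- BM-MDSC, -3.82 and -3.93 in MDSC (conv.), and -4.39 and -4.55 in DCs. It did not pass in 6G- BM-MDSC at 0.34 (adjusted p = 0.159) and passed in MDSC (conv.) at 0.59 (SE 0.16, adjusted p = 0.0486). This dim gene lost its call without any array of MDSC (conv.) or DCs (adjusted p 0.106 to 0.176), and gave 0.11 after normexp background correction. Adamts10, Adamts17 and Adamts18 did not pass.

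No member passed the test between 6G- BM-MDSC and MDSC (conv.). Over all genes 0.00457% were higher and 0.00915% lower, or 1 and 2 genes. At an unadjusted p under 0.05, limma gave 4 members higher and 1 lower, where 4.18% of all genes were higher and 6.61% lower. The methods' t-test gave 3 members higher and 2 lower, where 3.86% of all genes were higher and 4.30% lower. The smallest unadjusted p was that of Timp1, whose levels are given above, with a difference of 0.67 (SE 0.14, 1.59-fold, adjusted p = 0.303). Mmp2 came next at 0.40 (adjusted p = 0.342), followed by Mmp28 at -0.28, Adam1a at 0.24 and Adam19, a sheddase of neuregulins, at 0.22. These 5 genes were picked among members whose arrays did not overlap between both groups, and none held after adjustment. Of the 31 tested members, 12 were higher and 7 lower on every array, as were 4888 and 4769 of all 21862 genes. Mmp28 had a level of -1.81 and -1.87 in 6G- BM-MDSC and -1.61 and -1.51 in MDSC (conv.). Adam19 had a level of 1.72 and 1.71 in 6G- BM-MDSC and 1.48 and 1.51 in MDSC (conv.). Adamts17, a protease known from eye and skeletal disease, had a level of -5.11 and -4.40 in 6G- BM-MDSC and -5.25 and -5.62 in MDSC (conv.), near the edge of background. It was well above background on both 6G- BM-MDSC arrays and on 0 of 2 MDSC (conv.) arrays. Adamts17 was tested only through 6G- BM-MDSC, so its higher signal there was favoured by the filter. The difference did not pass (adjusted p = 0.497). Adam8, Adam15, Timp2 and Timp4, picked by the same rule, were lower in 6G- BM-MDSC on every array, by -0.36 to -0.11, and did not pass.

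Other genes that regulate metalloproteases were read from the same fit. Against DCs it called 15.0% of all genes higher and 17.8% lower in 6G- BM-MDSC, and 13.4% higher and 15.8% lower in MDSC (conv.). Of 9 tested activators and inhibitors outside the family, 3 were higher than in DCs in either MDSC group, and 1 was lower in 6G- BM-MDSC and 0 in MDSC (conv.). The median difference was 0.16 in 6G- BM-MDSC and 0.17 in MDSC (conv.). Reck, a membrane-anchored inhibitor of Mmp2, Mmp9 and Mmp14, had a level of 0.60 and 0.72 in 6G- BM-MDSC, 0.85 and 0.92 in MDSC (conv.), and -1.36 and -1.28 in DCs. It was higher on every MDSC array, by 1.99 (SE 0.08, adjusted p = 0.000349) in 6G- BM-MDSC and 2.21 (adjusted p = 0.000318) in MDSC (conv.), and so moved in the same direction as Timp3 and Mmp2. Thbs1, which binds and slows gelatinases, was higher by 1.95 in 6G- BM-MDSC and 2.12 in MDSC (conv.). Plaur, the urokinase receptor, was higher by 0.82 in 6G- BM-MDSC and 0.77 in MDSC (conv.) (adjusted p of at most 0.00625 for both genes). Furin, the convertase that activates membrane-bound MMPs and ADAMs, was lower in 6G- BM-MDSC, with a difference of -0.40 (adjusted p = 0.0242), and differed by -0.14 in MDSC (conv.) without passing.

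The carriers of Adam17 and Adam10 gave 3 of 8 tested genes higher and 1 lower in 6G- BM-MDSC (15.0% and 17.8% of all genes). In MDSC (conv.) 1 was higher and 0 lower (13.4% and 15.8% of all genes). Medians were 0.05 in 6G- BM-MDSC and 0.10 in MDSC (conv.). Rhbdf2, or iRhom2, which brings Adam17 to the surface of immune cells, had a level of 2.53 and 2.65 in 6G- BM-MDSC, 2.57 and 2.59 in MDSC (conv.), and 1.98 and 1.99 in DCs. It was higher on all MDSC arrays, by 0.60 (SE 0.08, adjusted p = 0.00607) in 6G- BM-MDSC and 0.59 (adjusted p = 0.00674) in MDSC (conv.). The tetraspanins that carry Adam10 did not share a direction in 6G- BM-MDSC, with Tspan14 at 0.56 and Tspan5 at 0.35 higher and Tspan33 at -0.61 lower (adjusted p of at most 0.0282), and none of them passed in MDSC (conv.).

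Of 22 tested membrane proteins that ADAMs shed, 10 were higher (45.5%) and 4 lower (18.2%) than in DCs in 6G- BM-MDSC, against 15.0% and 17.8% of all genes. In MDSC (conv.) 9 were higher (40.9%) and 8 lower (36.4%), against 13.4% and 15.8% of all genes. Medians were 0.26 in 6G- BM-MDSC and 0.13 in MDSC (conv.), and the lowest differences were -1.32 in 6G- BM-MDSC and -1.56 in MDSC (conv.). The genes named next were picked for the largest differences, and all of them were higher. Notch1, a receptor cut by Adam10, was higher by 1.57 in 6G- BM-MDSC and 2.06 in MDSC (conv.). Vcam1, an adhesion molecule, was higher by 1.74 in 6G- BM-MDSC and 1.80 in MDSC (conv.), and Hbegf, a growth factor freed by ADAMs, by 1.49 in 6G- BM-MDSC and 1.62 in MDSC (conv.) (adjusted p of at most 0.00387 for these 3). The list holds shed proteins of many functions, and RNA levels do not measure their cleavage.

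**Figure D4:**
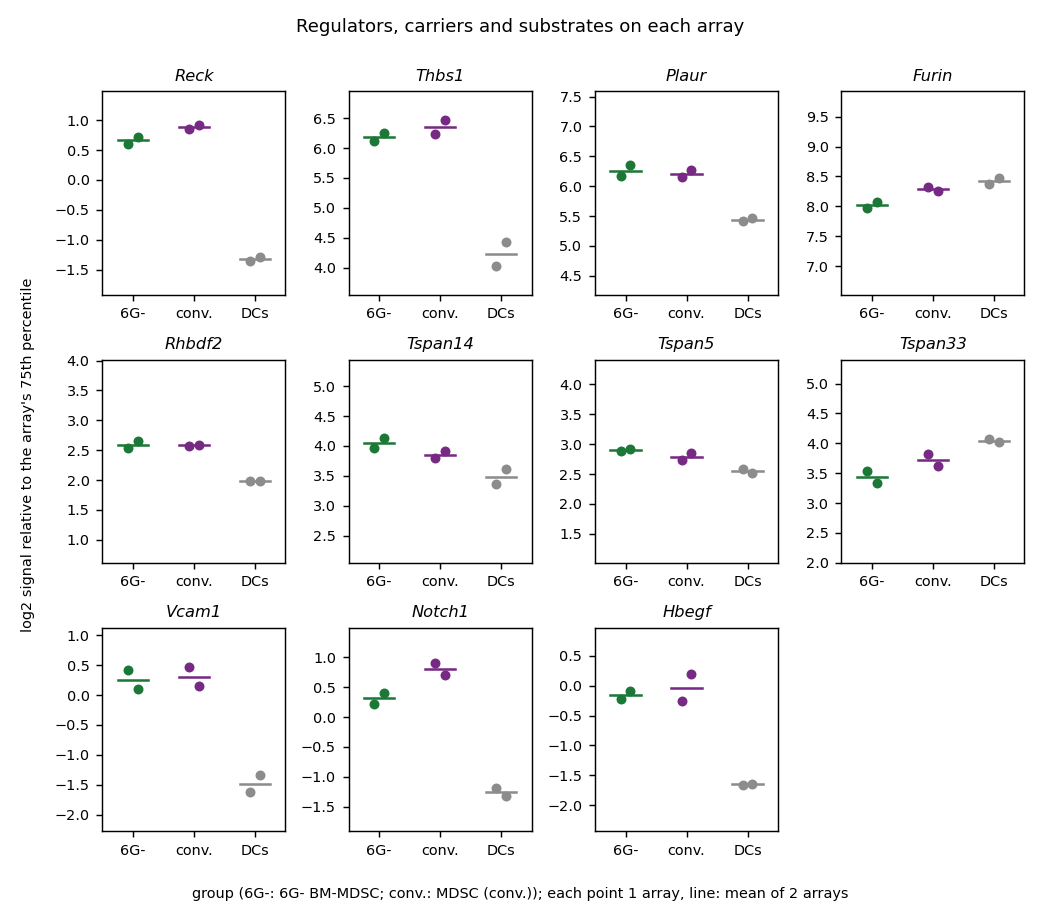
Log2 signal relative to the array's 75th percentile (y axis, each panel spanning the same range) of 4 regulators (Reck, Thbs1, Plaur, Furin), 4 carriers (Rhbdf2, Tspan14, Tspan5, Tspan33) and 3 substrates (Vcam1, Notch1, Hbegf) on each array of 6G- BM-MDSC, MDSC (conv.) and DCs (x axis), with points for arrays and a line for the mean of 2 arrays. Reck, Thbs1 and the 3 substrates stand well above DCs in both MDSC groups, and Tspan33 stands below DCs. Substrates that were lower than in DCs are not shown.

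Matrix proteins that these enzymes cut gave 4 of 11 tested genes higher and 1 lower in either MDSC group, with medians of -0.31 in 6G- BM-MDSC and -0.21 in MDSC (conv.). Of all genes, 15.0% were higher and 17.8% lower in 6G- BM-MDSC, and 13.4% and 15.8% in MDSC (conv.). Vcan, the proteoglycan versican, was higher by 2.73 in 6G- BM-MDSC and 2.88 in MDSC (conv.) (adjusted p of at most 0.000214). Neither Col1a1 nor Col4a2, both among the genes counted as higher, was well above background in DCs. They were tested only through the MDSC groups, so their higher signal there was favoured by the filter. For a lower bound on the fold, each dim array was set at its own signal or at the lowest signal called well above background, whichever was higher. For Col1a1, 6G- BM-MDSC were at least 7.06-fold higher and MDSC (conv.) at least 8.30-fold higher, and for Col4a2 the bounds were 3.29-fold in 6G- BM-MDSC and 2.76-fold in MDSC (conv.). Of the 5 fibroblast markers tested, 1 (Col1a1) was higher and 0 were lower in either MDSC group. Dcn, Lum and Pdgfra were at background on all 6 arrays, and the summed signal of the 9 markers was 1.94 to 2.93 in 6G- BM-MDSC, 2.61 to 3.66 in MDSC (conv.) and 3.72 to 4.61 in DCs. The number of these markers well above background on an array was 5 to 6 in 6G- BM-MDSC, 5 in MDSC (conv.) and 2 to 3 in DCs. Pdgfrb was well above background in both MDSC groups but not in DCs, and did not pass. Of 5 megakaryocyte markers, 4 were higher in either MDSC group. The other was lower on every MDSC array without passing (-1.39 in 6G- BM-MDSC and -1.46 in MDSC (conv.)). In summed signal these markers moved with Timp3, Mmp2 and Reck, at 36.7 to 38.5 in 6G- BM-MDSC, 31.3 to 35.6 in MDSC (conv.) and 8.33 to 12.1 in DCs. Basophil and mast cell markers did so as well (6 of 6 tested higher, Tpsab1 at background on all arrays), with 49.8 to 50.3 in 6G- BM-MDSC, 53.4 to 54.0 in MDSC (conv.) and 9.69 to 12.2 in DCs. So did 9 of 10 neutrophil markers, with 1237 to 1477 in 6G- BM-MDSC, 1522 to 1572 in MDSC (conv.) and 465.2 to 485.9 in DCs. The part of these cell types in the members' differences was not tested.

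Set against DCs, 1 of 12 other metalloproteases tested was higher and 4 lower in 6G- BM-MDSC (15.0% and 17.8% of all genes). In MDSC (conv.) 2 were higher and 3 lower (13.4% and 15.8% of all genes). Medians were -0.32 in 6G- BM-MDSC and -0.25 in MDSC (conv.). Dpep2, a dipeptidase that acts on leukotrienes, was lower, with differences of -1.30 in 6G- BM-MDSC and -1.01 in MDSC (conv.). Cpa3, the carboxypeptidase of mast cells and basophils, was higher by 1.19 in 6G- BM-MDSC and 1.30 in MDSC (conv.) (adjusted p of at most 0.0028 for both genes). Ace, the angiotensin-converting enzyme, was lower, with differences of -1.60 (SE 0.42, adjusted p = 0.0426) in 6G- BM-MDSC and -1.59 (adjusted p = 0.0469) in MDSC (conv.) and with DC levels of -0.81 and -2.03 wide apart. Adamtsl1, a noncatalytic relative of ADAMTS proteases, was not well above background in DCs, so that 6G- BM-MDSC were at least 1.46-fold and MDSC (conv.) at least 1.57-fold higher. It was tested only through the MDSC groups, so its higher signal there was favoured by the filter.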

How the data were processed

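Total RNA was labelled with Cy3 and hybridised to Agilent mouse arrays. The deposited scanner files hold spot intensity from Feature Extraction, version 10.7.3.1 per the file headers and 10.5.1.1 in the submitters' processing notes. The headers name another array design than the study's methods. The gProcessedSignal intensity, background-corrected by the authors' software, was used. Control spots and outlier-flagged spots (103 to 146 an array) were left out, none was saturated, spots of a probe were averaged, and log2 values were set against each array's 75th percentile (intensity 560.2 to 633.3). A probe was tested if well above background on both arrays of a group, and a gene was represented by its brightest tested probe. limma 3.58.1 fitted all 6 arrays with group as the only term (3 residual and 1.96 prior degrees of freedom), with Benjamini-Hochberg adjustment over 21862 genes, and was tested on simulated data. With 2 arrays a group precision is limited. The deposited value table held the same intensity, rounded.

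Members of the family and gene lists were chosen with earlier results of these data known. The genes named were, against DCs, the 10 members with the largest rises and the 10 with the largest falls past the test, between MDSC groups the 5 with the smallest p each way whose arrays did not overlap, the TIMPs, Adam10, Adam17 and Mmp14, members at background in a group, and up to 4 of each context list, of which 1 gene is not reported here. Member names came from the files, and RefSeq matched 116 of 150 member probes by accession.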

Additional observations from a re-analysis of the deposited data

How the results depend on the processing

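The differences of Timp3, Mmp2, Mmp12, Mmp25, Adam23 and Adam33 from DCs, 12 of 24 called, passed the test in both MDSC groups under 11 of 20 alternatives (normexp, quantile normalization, 2 filters, 2 ways of joining probes, kept outlier spots, the deposited value table, fewer arrays, an intensity-dependent prior and the replicate block) and with each of the 6 arrays left out. Sizes moved with the background correction. After normexp the differences in 6G- BM-MDSC and MDSC (conv.) were 1.58 and 1.51 for Timp3, 0.81 and 0.59 for Mmp2, and -0.98 and -1.12 for Adam33. They were -1.49 and -1.55 for Adam23, -1.09 and -0.92 for Mmp12, and -0.70 and -0.75 for Mmp25. The methods' t-test after Benjamini-Hochberg adjustment called 0 members higher and 0 lower in either comparison with DCs. Over all genes it called 0.188% higher and 0.114% lower in 6G- BM-MDSC, and 0.0183% higher and 0.0137% lower in MDSC (conv.). A fold of at least 2 as well as the adjusted p left 3 higher and 3 lower in 6G- BM-MDSC (5.36% and 4.58% of all genes) and 2 higher and 3 lower in MDSC (conv.) (5.33% and 3.77%). With 1 array left out, the lone array being assumed to vary like the other groups, 2 to 6 members were higher and 4 to 7 lower in 6G- BM-MDSC, and 2 to 4 were higher and 4 to 7 lower in MDSC (conv.). The higher counts moved by over 1.5 times without 6G- BM-MDSC replicate 2 or DCs replicate 1 in 6G- BM-MDSC (2 each) and without either MDSC (conv.) array (3 and 2) or either DC array (3 each) in MDSC (conv.). The lower counts did so without 6G- BM-MDSC replicate 2 (4) in 6G- BM-MDSC, and without either MDSC (conv.) array or DCs replicate 2 (4 each) in MDSC (conv.). Under each of these omissions the share of all genes called against DCs fell as well, both higher and lower, so fewer calls were not particular to the members. In 6G- BM-MDSC, 11 of 31 members were lower after normexp (22.3% of all genes) and 11 of 28 with probes above background on all 6 arrays (21.2%). With no filter on dim probes, 19 of 77 were lower in 6G- BM-MDSC (23.4% of all genes). In MDSC (conv.) 3 were then higher and 18 lower (7.81% and 23.3% of all genes). Between both MDSC groups the count was 0 each way with limma under all alternatives run, and the methods' unadjusted t-test gave 3 higher and 2 lower (3.86% and 4.30% of all genes). The cause of these shifts was not tested.

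Replicates of different groups shared only a number. Deviations of same-numbered arrays correlated at 0.0416 (6G- BM-MDSC and DCs), 0.125 (MDSC (conv.) and DCs) and 0.114 (both MDSC groups). With the replicate block 5 members were higher and 7 lower in 6G- BM-MDSC (14.4% and 17.0% of all genes). The block gave 4 and 7 in MDSC (conv.) (12.7% and 14.5% of all genes), and 0 and 0 between both MDSC groups. Under it Adam17 in 6G- BM-MDSC (adjusted p = 0.0658) and in MDSC (conv.) (0.0705), Adamts14 (0.0783) and Timp4 (0.056) in MDSC (conv.) did not pass, and Timp1 in 6G- BM-MDSC (0.0313) and Timp2 in MDSC (conv.) (0.0147) did.

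The sign changed for 17 values, none of them called. Normexp gave 0.060 for Adamts17 in 6G- BM-MDSC against DCs and 0.0064 for Timp4 between both MDSC groups. The mean of a gene's probes gave 0.13 for Mmp12, -0.25 for Adam23, 0.031 for Adam17 and -0.034 for Adam10 between both MDSC groups. With 1 array left out, Adamts17 in 6G- BM-MDSC against DCs ran from -0.51 to 0.20, and Mmp14 and Mmp28 in MDSC (conv.) against DCs ran from -0.10 to 0.48 and from -0.13 to 0.043. Between both MDSC groups the ranges were -0.057 to 0.050 for Adam17, -0.069 to 0.11 for Adam23, -0.0087 to 0.12 for Mmp25 and -0.11 to 0.16 for Timp3.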
